A study of Mus musculus with 9 samples.

Results

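The proteasome genes of mouse gastrocnemius, a calf muscle, were described in poly-A RNA-seq libraries from mice injected with extracellular vesicles (EVs), the membrane-bound particles that cells release. They were the rows of the deposited count table that are protein-coding and whose symbol starts with Psm, a letter from a to g and a digit. This rule found 50 genes of 35275 in the table, of which 22026 were protein-coding. Subunits, assembly chaperones and regulators of the proteasome made up 49 of the 50, and Psmc3ip, a meiotic recombination factor, matched by name only. Reads were sufficient to test 48 of the 50 members among 13901 genes tested. Psma8, the testis form of an alpha subunit, had at most 3 reads in any library, and Psmb11, the catalytic subunit of the thymus, at most 2.

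The animals were NSG females aged 12 weeks, labelled wild type in genotype; NSG is an immunodeficient strain without mature lymphocytes. Each received about 10 µg of EVs per injection through the tail vein, 2 times per week for 5 weeks, and muscle was taken 2 days after the last of the 10 injections. The EVs came from MCF-10A, a non-tumorigenic human breast epithelial line (MCF-10A EV, 4 libraries), or from the human breast cancer line MDA-MB-231 (MDA-MB-231 EV, 5 libraries). Both groups received EVs, and no group without EVs is analysed here, so which kind of EV a difference comes from cannot be told.

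The proteasome is the cell's main protease for proteins tagged with ubiquitin. Its barrel-shaped core particle stacks rings of alpha subunits, which gate the entrance, around rings of beta subunits, some of which cut. The regulatory particle on its end binds ubiquitin through base subunits, removes it in the lid, and unfolds and feeds in the substrate with a ring of ATPases. Cells exposed to interferon gamma replace the standard catalytic subunits Psmb5, Psmb6 and Psmb7 with Psmb8, Psmb9 and Psmb10 to form the immunoproteasome, which makes peptides for antigen presentation. In skeletal muscle, proteasome subunits are known to rise together in many forms of atrophy, and the transcription factor Nfe2l1 drives subunit genes through antioxidant response elements in their promoters.

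Promoters are shown for a pair of standard catalytic subunits that hold such an element and for Psmb8, which holds a gamma-activated site, an element of promoters that respond to interferon gamma. The windows run from 250 bases before to 50 bases after the RefSeq start on GRCm38.p6, 5′ to 3′ on the gene's strand. Capitals mark the motif, TGACNNNGC for the antioxidant response element and TTCNNNGAA for the gamma-activated site.
Psmb5 (chr14:54617946-54618245, minus strand): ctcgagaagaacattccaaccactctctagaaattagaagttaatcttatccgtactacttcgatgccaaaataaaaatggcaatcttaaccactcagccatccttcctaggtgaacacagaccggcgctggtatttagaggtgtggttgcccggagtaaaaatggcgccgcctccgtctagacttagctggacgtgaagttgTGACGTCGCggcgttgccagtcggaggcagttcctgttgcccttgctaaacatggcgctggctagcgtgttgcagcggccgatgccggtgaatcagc
Psmb6 (chr11:70525107-70525406, plus strand): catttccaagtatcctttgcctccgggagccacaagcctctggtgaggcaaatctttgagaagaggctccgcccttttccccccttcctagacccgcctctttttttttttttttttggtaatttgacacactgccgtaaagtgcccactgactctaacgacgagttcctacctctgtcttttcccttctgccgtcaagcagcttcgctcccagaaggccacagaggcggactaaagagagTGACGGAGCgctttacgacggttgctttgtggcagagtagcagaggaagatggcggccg
Psmb8 (chr17:34197945-34198244, plus strand): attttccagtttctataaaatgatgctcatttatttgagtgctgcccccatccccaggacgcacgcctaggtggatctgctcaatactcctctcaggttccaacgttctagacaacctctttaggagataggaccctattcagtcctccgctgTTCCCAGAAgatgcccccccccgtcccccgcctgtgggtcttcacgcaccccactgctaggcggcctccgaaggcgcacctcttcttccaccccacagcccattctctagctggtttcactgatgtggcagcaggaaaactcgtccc

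The element started at position -47 from the RefSeq start in Psmb5 and at -9 in Psmb6, and the gamma-activated site at -97 in Psmb8. RefSeq windows were found for 42 of the 50 members, 45 windows in all, and motifs were searched on both strands. The antioxidant response element was in 13.3% of member windows and in 12.4% of all 32851 RefSeq windows of the same length. Besides Psmb5 and Psmb6, it was in the windows of Psmc6, Psmd9, Psmd12 and Psme4. The CCAAT box, searched as CCAAT, was in 33.3% of member windows against 37.4% of all. The interferon-stimulated response element, searched as GAAA repeated after any 2 bases, was in 11.1% of member windows (Psmb3, Psmd4, Psmd9, Psme1 and Psmg4) against 3.44% of all. The gamma-activated site was in 6.67% (Psmb8, Psmd2 and Psmg1) against 8.3%. These matches describe letters in a window. Binding was not measured, so they are not shown to be binding sites. The Psmb8 window lies wholly inside the gene as the deposited table gives it.

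Libraries held 13943465 to 25195826 counted reads, the lowest in MCF-10A EV replicate 2. Summed CPM (counts divided by library size, which TMM scales for composition) of 8 muscle fibre markers such as Myh4 and Ttn was 143397 to 180413 in MCF-10A EV and 104630.4 to 129390.2 in MDA-MB-231 EV, without overlap. Of the 8, 6 had a log2 fold change below 0 (46.9% of all genes), 4 of them at an unadjusted p under 0.05 in edgeR (6.86% of all genes). The other 2 were above 0, Mb at 0.94 (unadjusted p under 0.05, as for 5.95% of all genes) and Actn2 at 0.21. In DESeq2, Myh4 and Neb had adjusted p of 0.00686 and 0.0100, where 3.05% of genes with an adjusted p were under 0.05. Acta1 and Myh4 made up most of the sum, and Myh4 had the widest gap in CPM (67144 ± 14183 CPM, SD, n = 4, against 40408 ± 7368 CPM, SD, n = 5). MCF-10A EV replicates 1 and 2 stood apart. Replicate 1 had the lowest sum of 6 slow-fibre markers, 165 CPM against 613 to 3544 in the other libraries. Summed CPM of 11 macrophage and leukocyte markers was 278 in replicate 1 and 105 in replicate 2, against 153 to 220.2 elsewhere. Pancreatic islet transcripts summed to 71.8 to 146 CPM in 5 libraries (replicates 2 and 3 of MCF-10A EV, 1, 3 and 4 of MDA-MB-231 EV) and to at most 2.20 CPM in the rest. The 8 lymphocyte markers summed to at most 1.10 CPM in any library, with the natural killer cell receptor Ncr1 at 0 in all.

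No proteasome gene passed the test. With TMM scaling, 28 of the 31 standard subunits were lower in MDA-MB-231 EV by fold change. On unscaled library sizes only 16 of the 31 were. The 3 immunoproteasome subunits were higher in MDA-MB-231 EV with either scaling. Of all genes, 46.9% were lower with TMM scaling and 25.9% on unscaled library sizes, so most genes were higher on the latter. The TMM factor of every MDA-MB-231 EV library was above that of every MCF-10A EV library, so the direction of many standard subunits depended on this scaling. By edgeR's quasi-likelihood test with Benjamini-Hochberg adjustment over all genes tested, 0 members passed an adjusted p of 0.05, as did 0% of all genes. The smallest adjusted p in edgeR was 0.295 for a member, Psmd6, and 0.133 over all genes. At an unadjusted p under 0.05, 10 members were lower in MDA-MB-231 EV, which is 20.8% of the 48 tested against 6.86% of all genes. None was higher, against 5.95% of all genes. The 10 became 2 without MCF-10A EV replicate 1, 6 without its replicate 2 or its replicate 3, 14 without its replicate 4, and 3, 4 and 5 without MDA-MB-231 EV replicates 2, 3 and 5. DESeq2 called 0 of the 41 members to which it gave an adjusted p, against 3.05% of the 7503 genes with one. At an unadjusted p under 0.05 in DESeq2 were 10 members, 20.8%, against 9.56% of the 21832 genes with a p in DESeq2. Those 21832 genes include many with too few reads for edgeR's test, whereas the 48 members passed its filter. The DESeq2 shares are therefore not like for like.

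The log2 fold change, positive where MDA-MB-231 EV was higher, was below 0 in 35 of the 48 members, or 72.9%, against 46.9% of all genes. Its median was -0.12 over the members and 0.020 over all genes, with a median SE of 0.11 per member. The lowest was -0.52 (Psmd1) and the highest 0.48 (Psmg3). All 10 members at an unadjusted p under 0.05 belonged to the 31 standard subunits of the core and regulatory particles, of which 28 were below 0, with a median of -0.15. The other 17 tested members (inducible subunits, chaperones, activators, Psmf1 and Psmc3ip) had 7 below 0 and a median of 0.020. With library sizes left unscaled, the all-gene median moved to 0.15 and the member median to 0.014, and 0 members were lower and 2 higher (Psmb9 and Psmf1) at an unadjusted p under 0.05. Relative to the all-gene median, the members' median was -0.14 with either scaling. Below 0 on unscaled library sizes were 20 of the 48 members and 16 of the 31 standard subunits, against 25.9% of all genes. Below the all-gene median were 28 of the 31 standard subunits with either scaling. A change of scaling shifts all genes by nearly the same amount. Values relative to the all-gene median could therefore hardly differ between scalings and do not test that choice.

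**Figure D1:**
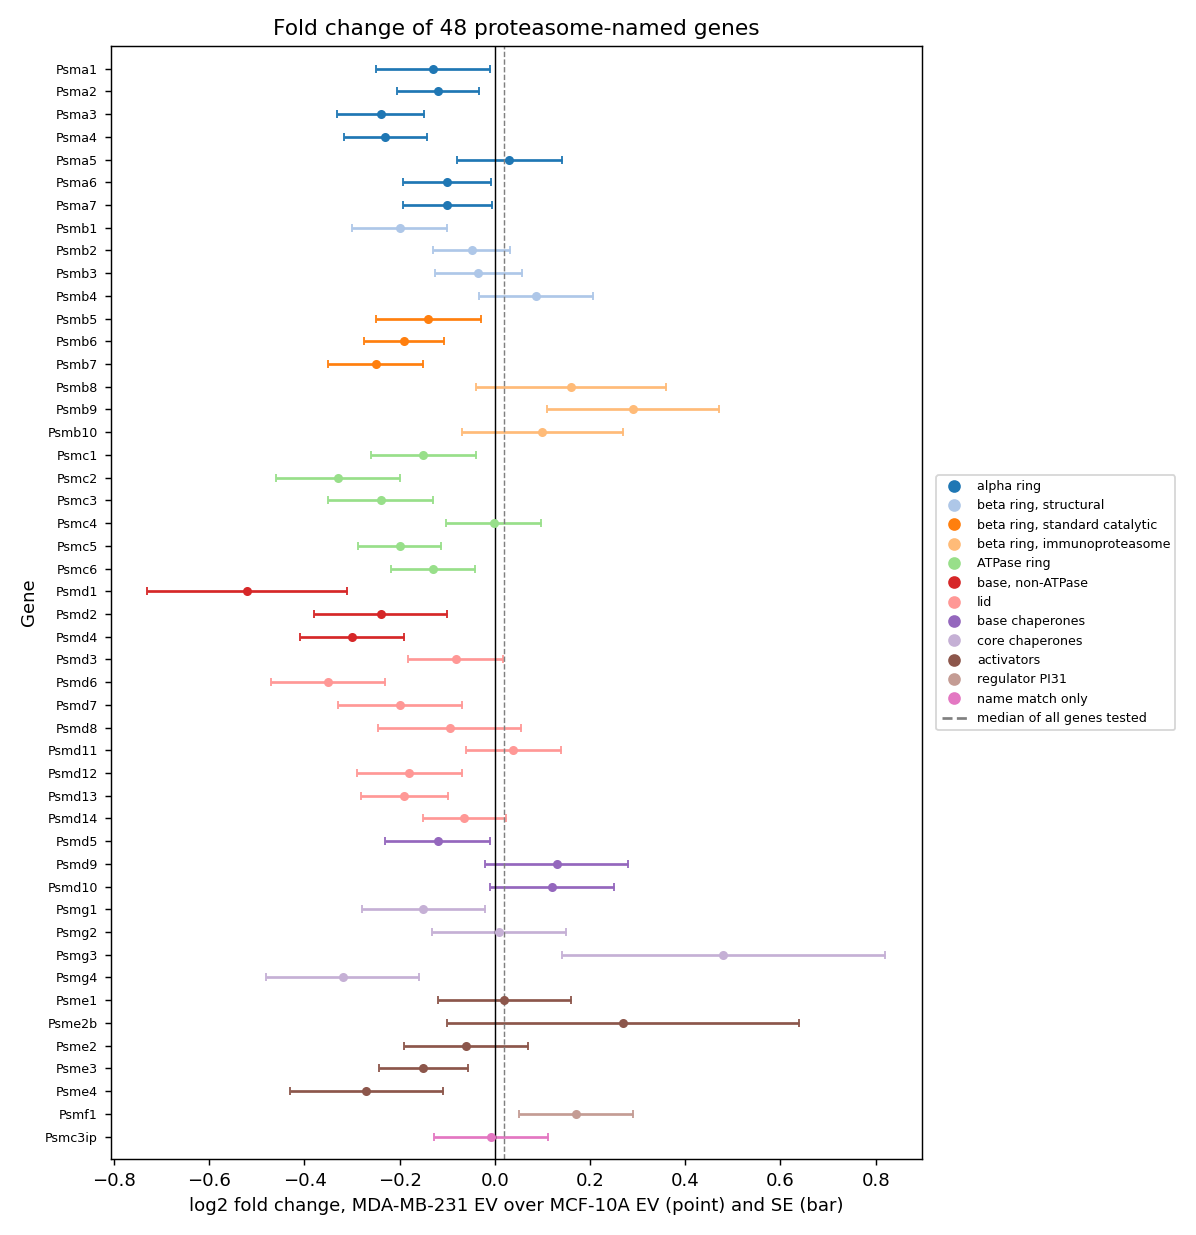
Log2 fold change (above 0 where MDA-MB-231 EV was higher) of the 48 tested members, from edgeR (points) with its SE (bars), coloured by subgroup; the dashed line is the median of all genes tested, 0.020. Most standard subunits lie left of 0, down to -0.52 for Psmd1, while Psmb8, Psmb9 and Psmb10 lie right of it.

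Levels per length were compared as the deposited FPKM (reads per kilobase of gene, on each library's total), averaged over the 9 libraries. The 3 standard catalytic subunits had a median of 138 FPKM, the structural beta subunits 70.4, the ATPases 68.2, the base subunits that are not ATPases 61.4, the alpha ring 52.2 and the lid 45.4. Psmb7 was the highest member at 186 FPKM, followed by Psmb6 at 138, Psma6 at 113 and Psmc3 at 107. The standard subunit with the lowest level was Psmd14, the lid's deubiquitinase, at 26.0 FPKM. Most members that are not standard subunits lay below it. The activators had a median of 24.9 FPKM, the core chaperones 8.67, the base chaperones 4.55 and the immunoproteasome subunits 1.72. Of the tested members, the core chaperone Psmg3 was lowest at 0.614 FPKM.

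**Figure D2:**
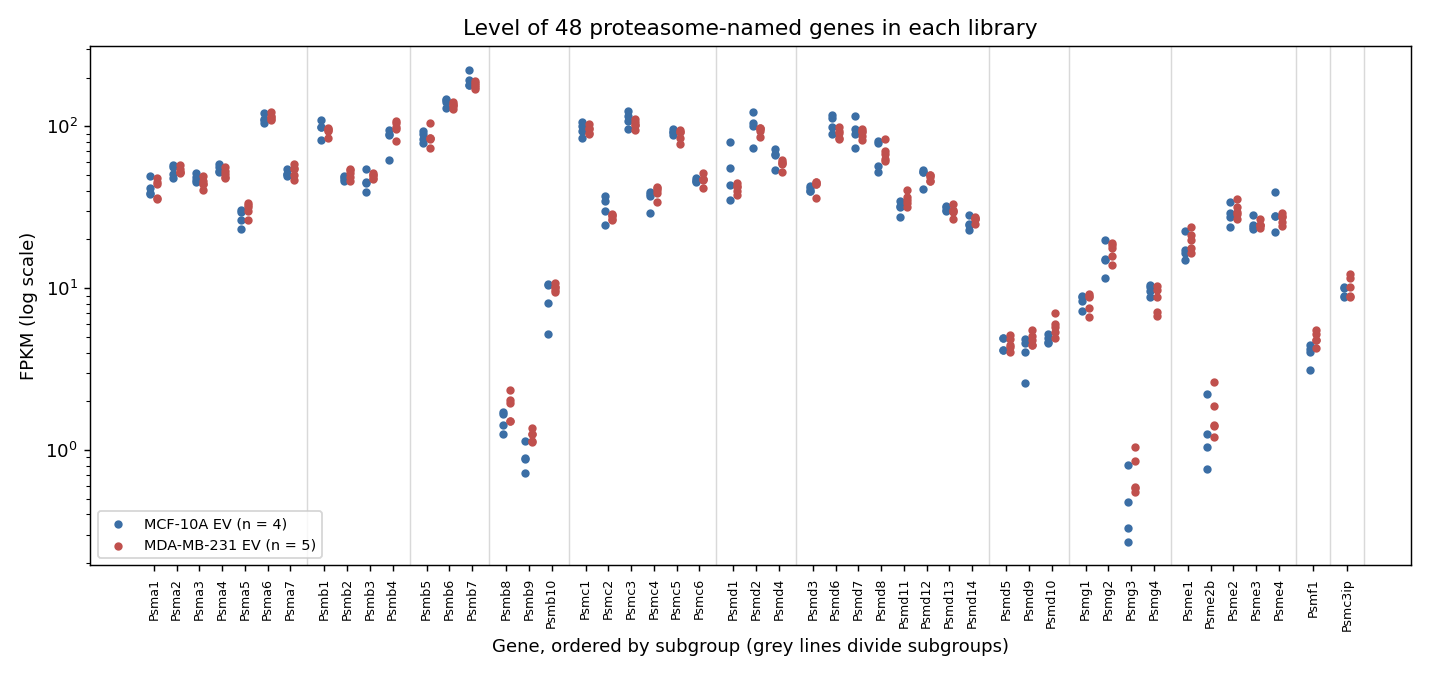
FPKM (log scale) of the 48 tested members in each library, ordered by subgroup, with MCF-10A EV in blue (n = 4) and MDA-MB-231 EV in red (n = 5). Means of the standard subunits run from 26.0 FPKM (Psmd14) to 186 FPKM (Psmb7), and inducible subunits, chaperones and Psmf1 lie lower.

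Higher-level members had lower fold changes. Across genes, Spearman's rho of log2 fold change against mean FPKM was -0.59 over the 48 members, -0.37 over the 31 standard subunits, -0.78 over the other 17 and -0.28 over all genes. This is a description: the genes share the 9 libraries and their scaling, and genes are not independent replicates.

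The alpha ring forms the outer gate of the core particle. Of its 7 tested subunits, 6 had a log2 fold change below 0, against 46.9% of all genes. With unscaled library sizes 2 were below 0, against 25.9% of all genes. At an unadjusted p under 0.05, 2 were lower, Psma3 and Psma4, against 6.86% of all genes. Psma3 was at 153, 143, 149 and 131 CPM in MCF-10A EV, replicates 1 to 4 in order as throughout, against 122, 118, 112, 125 and 133 CPM in MDA-MB-231 EV. Only MCF-10A EV replicate 4 fell inside the MDA-MB-231 EV range, so the groups overlapped by 1 library on each side. The log2 fold change of Psma3 was -0.24 ± 0.091 (SE; edgeR adjusted p = 0.326). That of Psma4 was -0.23 ± 0.087, with means of 67.2 ± 3.84 CPM (SD, n = 4) and 57.4 ± 3.91 CPM (SD, n = 5). Psma5 was the exception, at 0.030 ± 0.11 (SE), and the median of the ring was -0.12.

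The structural beta subunits Psmb1 to Psmb4 complete the inner rings without cutting. Their median log2 fold change was -0.042, beside 0.020 for all genes, and 0 of 4 had an unadjusted p under 0.05. Psmb1 came first in this subgroup by p, at 112, 123, 104 and 87.4 CPM in MCF-10A EV and 94.6, 93.5, 86.4, 96.1 and 93.3 CPM in MDA-MB-231 EV. MCF-10A EV replicates 1 to 3 lay above every MDA-MB-231 EV library and replicate 4 among them. Its log2 fold change was -0.20 ± 0.10 (SE; edgeR adjusted p = 0.441), or -0.13 when replicate 2 was left out. Psmb2 had the smallest SD of the 4 in MCF-10A EV, at 43.3 ± 0.561 CPM (SD, n = 4) and 41.9 ± 2.48 CPM (SD, n = 5).

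Psmb5, Psmb6 and Psmb7 carry the chymotrypsin-like, caspase-like and trypsin-like activities of the standard proteasome. All 3 were below 0, against 46.9% of all genes. With unscaled library sizes 2 of the 3 were below 0, against 25.9% of all genes. Psmb5 (ENSMUSG00000022193; mm10, chromosome 14, 54614120 to 54617995, minus strand) measured 89.1, 73.9, 74.3 and 79.6 CPM in MCF-10A EV and, in MDA-MB-231 EV, at 71.7, 86.3, 62.9, 70.1 and 69.3 CPM. The groups overlapped through MDA-MB-231 EV replicate 2, which was second highest of all 9 libraries. Its log2 fold change was -0.14 ± 0.11 (SE; edgeR adjusted p = 0.608). Leaving out MCF-10A EV replicate 1 gave -0.076 and leaving out MDA-MB-231 EV replicate 3 gave -0.089.

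Psmb6 (ENSMUSG00000018286; chromosome 11, 70525367 to 70527858, plus strand) measured 155, 135, 139 and 145 CPM in MCF-10A EV and, in MDA-MB-231 EV, at 126, 129, 121, 128 and 125 CPM. Every MCF-10A EV library lay above every MDA-MB-231 EV library. The log2 fold change was -0.19 ± 0.084 (SE; edgeR adjusted p = 0.379). Psmb7 (ENSMUSG00000026750; chromosome 2, 38588036 to 38644087, minus strand) measured 247, 281, 212 and 213 CPM in MCF-10A EV and, in MDA-MB-231 EV, at 192, 207, 198, 204 and 198 CPM. Here too the groups did not overlap, with MCF-10A EV replicates 1 and 2 well above the rest and replicates 3 and 4 just above the highest MDA-MB-231 EV library. Its log2 fold change was -0.25 ± 0.10 (SE; edgeR adjusted p = 0.344). Psmb7 shares 11.8% of its exonic bases with Nek6 on the opposite strand, and whether counting used strand is not given in the sources used here.

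Psmb6, Psmb7 and the ATPase Psmc5 were the only members, 6.25% of the 48, whose groups did not overlap in the lower direction, against 3.17% of all genes. None was separated in the higher direction, against 2.22%. On unscaled library sizes no member was separated in either direction, against 0.727% of all genes lower and 5.87% higher.

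**Figure D3:**
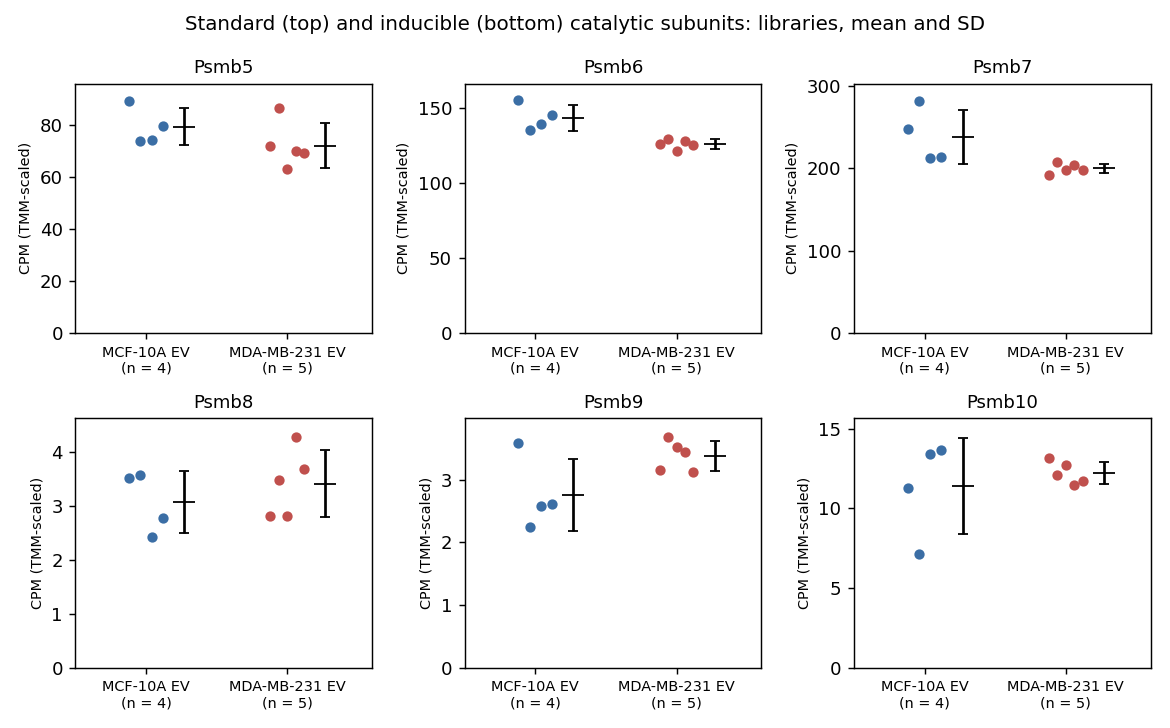
TMM-scaled CPM of the standard (top) and inducible (bottom) catalytic subunits in each library (dots), with the mean and SD of each group. The groups do not overlap for Psmb6 and Psmb7, and they overlap for Psmb5 and for the 3 inducible subunits, which lie at 2.25 to 13.7 CPM.

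The inducible subunits Psmb8, Psmb9 and Psmb10 had log2 fold changes above 0, with a median of 0.16, and 0 of 3 had an unadjusted p under 0.05. Below 0 were 46.9% of all genes. With unscaled library sizes 0 of the 3 were below 0, against 25.9% of all genes. Psmb9 (ENSMUSG00000096727; chromosome 17, 34181988 to 34187764, minus strand), which takes the place of Psmb6, was at 3.58, 2.25, 2.58 and 2.62 CPM in MCF-10A EV and, in MDA-MB-231 EV, at 3.15, 3.68, 3.52, 3.45 and 3.12 CPM. MCF-10A EV replicates 2 to 4 lay below all of MDA-MB-231 EV and replicate 1 lay near the top. Its log2 fold change was 0.29 ± 0.18 (SE; edgeR adjusted p = 0.521), from 29 to 78 reads per library, and 0.44 when MCF-10A EV replicate 1 was left out. Psmb9 lies back to back with the peptide transporter gene Tap1 and shares 5.79% of its exonic bases with it on the opposite strand.

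Psmb8 (ENSMUSG00000024338; chromosome 17, 34197721 to 34201454, plus strand), the partner of Psmb5, was at 3.52, 3.58, 2.42 and 2.78 CPM in MCF-10A EV and, in MDA-MB-231 EV, at 2.82, 3.49, 2.82, 4.27 and 3.68 CPM. The ranges overlapped over most of their length, and the log2 fold change was 0.16 ± 0.20 (SE; edgeR adjusted p = 0.766). Leaving out MCF-10A EV replicate 3 gave 0.056 and leaving out MDA-MB-231 EV replicate 4 gave 0.071. Psmb10 (ENSMUSG00000031897; chromosome 8, 105935728 to 105938392, minus strand), the partner of Psmb7, was at 11.3, 7.15, 13.4 and 13.7 CPM in MCF-10A EV and, in MDA-MB-231 EV, at 13.2, 12.1, 12.7, 11.5 and 11.7 CPM. MCF-10A EV replicate 2 was far below all other libraries, while replicates 3 and 4 were the highest. The log2 fold change of Psmb10, 0.10 ± 0.17 (SE; edgeR adjusted p = 0.841), was -0.066 without MCF-10A EV replicate 2.

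Within each library, the inducible subunits were a few percent or less of their standard partners in FPKM, a ratio that does not depend on scaling between libraries. Psmb9 was 0.775, 0.560, 0.623 and 0.607% of Psmb6 in MCF-10A EV and 0.839, 0.954, 0.971, 0.904 and 0.837% in MDA-MB-231 EV. The groups did not overlap, with means of 0.641 ± 0.0928% (SD, n = 4) and 0.901 ± 0.0628% (SD, n = 5) and a log2 difference of 0.50. Psmb8 was 1.80, 2.21, 1.49 and 1.59% of Psmb5 in MCF-10A EV (1.77 ± 0.319%, SD, n = 4) and 1.80, 1.85, 2.04, 2.78 and 2.42% in MDA-MB-231 EV (2.18 ± 0.418%, SD, n = 5). These groups overlapped, with a log2 difference of 0.29. Psmb10 was 4.54 ± 1.67% of Psmb7 in MCF-10A EV, as low as 2.32% in replicate 2, and 5.61 ± 0.466% in MDA-MB-231 EV. These are the 3 ratios computed, and none was tested. Immunoproteasome subunits are abundant in leukocytes. The sum of leukocyte markers was lowest in MCF-10A EV replicate 2, where Psmb9 and Psmb10 were lowest but Psmb8 was the highest of its group. Its range in MDA-MB-231 EV lay inside that of MCF-10A EV. Of the 11 markers, 10 had a log2 fold change above 0, with a median of 0.16, where 46.9% of all genes were below 0. Their part in the ratios was not tested, and in bulk muscle fewer cells of a type and less RNA per cell cannot be told apart.

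**Figure D4:**
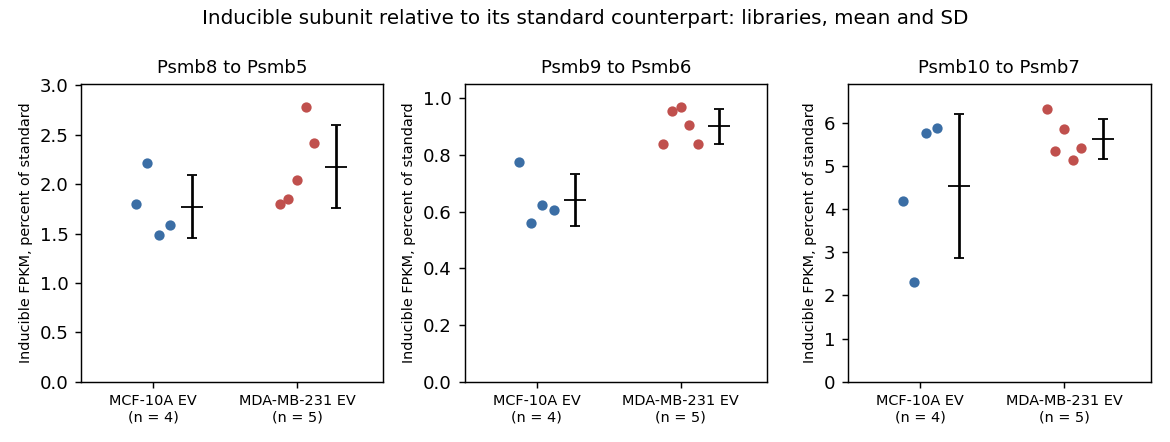
FPKM of each inducible subunit as a percentage of its standard partner in each library (dots), with the mean and SD of each group. Psmb9 to Psmb6 is 0.560 to 0.775% in MCF-10A EV and 0.837 to 0.971% in MDA-MB-231 EV, and the groups overlap for the other pairs.

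The ATPase ring, Psmc1 to Psmc6, unfolds substrates. All 6 of its subunits were below 0, against 46.9% of all genes, though Psmc4 only at -0.0027. With unscaled library sizes 4 of the 6 were below 0, against 25.9% of all genes. The median was -0.17, and 3 were lower at an unadjusted p under 0.05, against 6.86% of all genes. Psmc2 had the smallest p, at 131, 139.8, 105 and 87.2 CPM in MCF-10A EV and, in MDA-MB-231 EV, at 94.0, 87.7, 89.4, 94.1 and 94.0 CPM. MCF-10A EV replicates 1 to 3 were above the narrow MDA-MB-231 EV range and replicate 4 was just below it. Its fitted log2 fold change was -0.33 ± 0.13 (SE; edgeR adjusted p = 0.329). Psmc5, the separated member of the ring, was at 141, 133, 131 and 136 CPM in MCF-10A EV and, in MDA-MB-231 EV, at 115, 124, 106, 123 and 121 CPM. The libraries of each group lay close together, and the log2 fold change was -0.20 ± 0.087 (SE; edgeR adjusted p = 0.369). Psmc4, in the same ring, was at 71.4 ± 8.37 CPM (SD, n = 4) and 71.3 ± 5.07 CPM (SD, n = 5).

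The non-ATPase base subunits are the scaffolds Psmd1 and Psmd2 and the ubiquitin receptor Psmd4, and their median log2 fold change, -0.30, was the lowest of the subgroups. Psmd4 was at 158, 167, 143 and 117 CPM in MCF-10A EV and, in MDA-MB-231 EV, at 120.5, 120.0, 109, 119 and 125 CPM. MCF-10A EV replicates 1 to 3 were higher than every MDA-MB-231 EV library and replicate 4 lay within that group. Its fitted log2 fold change was -0.30 ± 0.11 (SE; edgeR adjusted p = 0.324). Psmd1, named because its fold change was the lowest, was at 189.5, 272, 137 and 111 CPM in MCF-10A EV and, in MDA-MB-231 EV, at 127, 110.2, 135, 127 and 119 CPM. MCF-10A EV replicate 2 was the highest and replicate 4 the second lowest of the 9 libraries. The fold change, -0.52 ± 0.21 on the log2 scale (SE; edgeR adjusted p = 0.346), shrank to -0.24 when MCF-10A EV replicate 2 was left out and was -0.0041 when replicate 1 was left out too.

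The lid removes ubiquitin chains, and 7 of its 8 subunits were below 0, against 46.9% of all genes, with a median of -0.14. With unscaled library sizes 4 of the 8 were below 0, against 25.9% of all genes. Psmd6, a structural lid subunit (ENSMUSG00000021737; chromosome 14, 14112184 to 14120984, minus strand), had the smallest p of all members. It was at 169, 176, 138 and 126 CPM in MCF-10A EV and, in MDA-MB-231 EV, at 114, 109, 122, 130.4 and 123 CPM. MCF-10A EV replicates 1 to 3 were the 3 highest libraries, and replicate 4 lay below MDA-MB-231 EV replicate 4. The log2 fold change was -0.35 ± 0.12 (SE; edgeR adjusted p = 0.295; DESeq2 adjusted p = 0.0850) and -0.14 without MCF-10A EV replicates 1 and 2. Psmd14, the deubiquitinase, was at -0.064 ± 0.087 and its partner Psmd7 at -0.20 ± 0.13 (log2 fold change and SE). Psmd7 was at -0.076 with MCF-10A EV replicate 2 left out and at -0.32 with replicate 4 left out, and Psmd14 at -0.022 with replicate 3 left out and at -0.12 with replicate 4 left out. Psmd11 was the lid subunit above 0, at 0.039 ± 0.10.

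Assembly chaperones hold subunits together until the particles are complete and then leave. Psmd5, Psmd9 and Psmd10 assemble the base, and their log2 fold changes were -0.12 ± 0.11, 0.13 ± 0.15 and 0.12 ± 0.13 (SE), none with an unadjusted p under 0.05. Psmd5, with the smallest p of the 3, was at 15.5, 18.1, 17.0 and 14.4 CPM in MCF-10A EV and, in MDA-MB-231 EV, at 17.1, 12.9, 14.9, 15.7 and 14.0 CPM. The groups overlapped nearly throughout, and leaving out replicate 2 of either group moved its log2 fold change to -0.068 (MCF-10A EV) or -0.066 (MDA-MB-231 EV). Psmd9 was at 7.46 CPM in MCF-10A EV replicate 2 and at 11.2 to 13.8 CPM in the other 8 libraries. With MCF-10A EV replicate 2 left out, the median of the 3 relative to all genes was -0.030.

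Psmg1 to Psmg4 assemble the core's alpha ring as pairs. Psmg4 was at 5.34, 6.22, 5.73 and 5.40 CPM in MCF-10A EV and, in MDA-MB-231 EV, at 5.24, 4.63, 3.87, 5.44 and 3.54 CPM. The highest MDA-MB-231 EV library reached into the MCF-10A EV range, and the log2 fold change was -0.32 ± 0.16 (SE; edgeR adjusted p = 0.437). Its partner Psmg3 was at 0.715, 0.855, 1.17 and 1.99 CPM in MCF-10A EV and, in MDA-MB-231 EV, at 1.37, 2.36, 2.01, 1.26 and 1.35 CPM. With 11 to 50 reads per library and replicate 4 of MCF-10A EV among the highest, its fold change, 0.48 ± 0.34 on the log2 scale (SE; edgeR adjusted p = 0.564), was the least precise of the core chaperones. It was 0.30 with MCF-10A EV replicate 1 left out and 0.85 with replicate 4 left out. Psmg1 and Psmg2, the other pair, were at -0.15 ± 0.13 and 0.0087 ± 0.14 (log2 fold change and SE).

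The activators open the core without the ATPases. Psme1 and Psme2, which form the interferon-inducible activator, were at log2 fold changes of 0.020 ± 0.14 and -0.060 ± 0.13 (SE), and Psme3, the nuclear activator, at -0.15 ± 0.093. Psme4, a large single-chain activator with the smallest p of the 5, was at 198, 278, 185 and 147 CPM in MCF-10A EV and, in MDA-MB-231 EV, at 175, 156, 186, 149.8 and 171 CPM. MCF-10A EV replicate 2 was the highest library and replicate 4 the lowest, and the log2 fold change was -0.27 ± 0.16 (SE; edgeR adjusted p = 0.488). It shrank to -0.077 when MCF-10A EV replicate 2 was left out. Psme2b, a near-copy of Psme2 that can share its reads, had 16 to 43 reads per library and is uncertain. Psmf1, known as the inhibitor PI31, was at 18.5, 12.9, 15.6 and 16.5 CPM in MCF-10A EV and, in MDA-MB-231 EV, at 17.8, 19.7, 17.7, 19.0 and 15.4 CPM. The groups overlapped, with MCF-10A EV replicate 2 the lowest, and the log2 fold change was 0.17 ± 0.12 (SE; edgeR adjusted p = 0.558), or 0.087 when MCF-10A EV replicate 2 was left out. Psmc3ip was at 12.9 ± 0.492 CPM (SD, n = 4) and 12.8 ± 1.79 CPM (SD, n = 5), and it shares 21.2% of its exonic bases with Mlx on the opposite strand.

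The standard subunits differed in level between MCF-10A EV libraries. The median deviation of the 31 subunits from their 9-library mean, on the log2(CPM + 0.5) scale, was 0.20, 0.12, 0.057 and -0.050 in MCF-10A EV replicates 1 to 4. Across MDA-MB-231 EV the same median was -0.031, -0.059, -0.13, -0.033 and -0.050. MCF-10A EV replicate 4 thus lay among the MDA-MB-231 EV libraries and replicate 1 farthest above them. In replicate 1, 26 of the 31 subunits exceeded the highest MDA-MB-231 EV library, in replicate 2 there were 21 (with 6 below the lowest), in replicate 3 there were 18 and in replicate 4 there were 3 (with 6 below the lowest). Subgroups did not all follow this order: the non-ATPase base subunits were at 0.28, 0.46, 0.10 and -0.35 and the standard catalytic subunits at 0.21, 0.017, -0.011 and 0.089. The sum of muscle fibre markers was 180413, 154365, 144032 and 143397 CPM in MCF-10A EV and lay between 104630.4 and 129390.2 CPM in MDA-MB-231 EV. Single markers differed in order: Myh4 was highest in MCF-10A EV replicate 1 (85252 CPM), where Mb (768 CPM) and Actn2 (589 CPM) were lowest of the 9 libraries, and Acta1 was highest in replicate 3. Their part in the subunits' values was not tested. Without MCF-10A EV replicates 1 and 2, the median log2 fold change of the 31 standard subunits relative to all genes was -0.058, and 0 members were lower at an unadjusted p under 0.05.

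**Figure D5:**
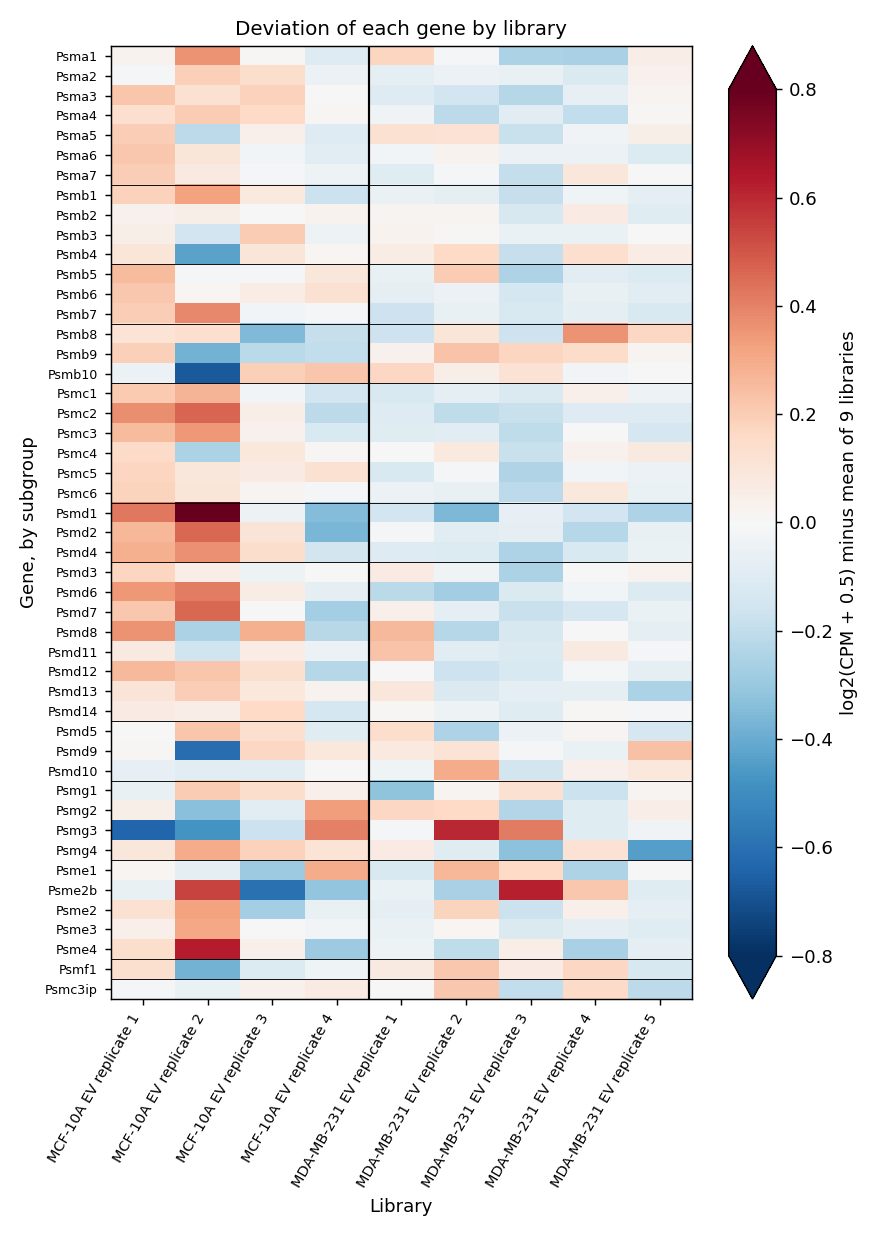
Deviation of each tested member from its mean over the 9 libraries, on the log2(CPM + 0.5) scale, with MCF-10A EV left and MDA-MB-231 EV right of the vertical line; red is above and blue below the mean. Red in MCF-10A EV replicates 1 and 2 marks the standard subunits, whose medians there are 0.20 and 0.12, while Psmb10 and Psmd9 are blue in replicate 2.

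As a share of the summed FPKM of a library, all 50 members together took 0.502, 0.561, 0.490 and 0.444% in MCF-10A EV and 0.475, 0.475, 0.444, 0.480 and 0.484% in MDA-MB-231 EV. The means were 0.499 ± 0.0481% (SD, n = 4) and 0.472 ± 0.0159% (SD, n = 5), a difference smaller than the spread of MCF-10A EV. The ranges overlapped, and the immunoproteasome subunits took 0.00233 ± 0.000410% and 0.00271 ± 2.81e-05% of the total.

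Other genes of the pathway were described from lists of subunits with other names, gene control, ubiquitin, substrate delivery and antigen processing, and 0 genes of any list passed edgeR's adjusted threshold. Of 12 tested subunits and partners with other names, 2 were lower (6.86% of all genes) and 2 higher (5.95% of all genes) at an unadjusted p under 0.05, with a median log2 fold change of -0.092. The ubiquitin receptor Adrm1 was at -0.11 ± 0.10, the small lid subunit Sem1 (listed as Shfm1) at -0.10 ± 0.11 and the core maturation factor Pomp at 0.11 ± 0.14 (log2 fold change and SE). The smallest p-values in that list were those of the deubiquitinase Uchl5 (-0.33 ± 0.12), the scaffold Ecpas (listed as AI314180, -0.57 ± 0.21) and Zfand2a, a stress-induced proteasome partner (0.40 ± 0.16). Ecpas was at 300.0, 497, 272 and 216 CPM in MCF-10A EV and 251, 191, 237, 187 and 217 CPM in MDA-MB-231 EV. MCF-10A EV replicate 2 was its highest library, and replicate 4 lay inside the MDA-MB-231 EV range.

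The list of gene control held 8 tested genes, 0 of them at an unadjusted p under 0.05, with a median log2 fold change of 0.00018. Nfe2l1 was at 687, 852, 893 and 681 CPM in MCF-10A EV and, in MDA-MB-231 EV, at 1021, 733, 772, 854 and 759 CPM. The groups overlapped, and the log2 fold change was 0.089 ± 0.13 (SE; edgeR adjusted p = 0.811). Ngly1, which deglycosylates Nfe2l1 before it is cleaved, was at -0.17 ± 0.087, Keap1, the repressor of the related Nfe2l2, at -0.22 ± 0.12, and their dimer partner Mafk at 0.29 ± 0.15.

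Of 7 genes for ubiquitin and its activating enzymes, 2 were lower at an unadjusted p under 0.05, against 6.86% of all genes, with a median of -0.23. Rps27a, a ubiquitin fusion gene, was at -0.20 ± 0.081, the activating enzyme Uba1 at -0.23 ± 0.10 and polyubiquitin Ubb at -0.24 ± 0.12 (log2 fold change and SE). Values of this list and the next are with TMM scaling. With it, the groups did not overlap for Rps27a and Uba1, as for 3.17% of all genes in the lower direction. On unscaled library sizes the groups overlapped for both genes. Ubiquitin genes are near-identical in their coding repeats, so their reads may be shared. Of 11 shuttles and unfoldase genes, which bring tagged proteins to the proteasome, 3 were lower at an unadjusted p under 0.05, against 6.86% of all genes, with a median of -0.22. The chaperone Bag6 was at -0.29 ± 0.11 and Faf1, a cofactor of the unfoldase Vcp, at -0.59 ± 0.24 (log2 fold change and SE). The groups of Bag6 did not overlap with TMM scaling (3.17% of all genes, lower direction) but overlapped on unscaled library sizes. Faf1 was at 101, 175, 77.4 and 67.9 CPM in MCF-10A EV and 79.2, 66.1, 78.9, 60.7 and 63.7 CPM in MDA-MB-231 EV. MCF-10A EV replicate 2 was the highest library for Faf1, and replicates 3 and 4 lay inside the MDA-MB-231 EV range.

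Of 10 antigen-processing genes, 9 had a log2 fold change above 0 and 2 (against 5.95% of all genes) were higher at an unadjusted p under 0.05. Their median was 0.22, against 0.020 over all genes, of which 46.9% were below 0. Irf1, a transcription factor induced by interferon that drives Psmb8 and Psmb9, was at 4.95, 4.90, 5.93 and 5.51 CPM in MCF-10A EV and, in MDA-MB-231 EV, at 7.90, 10.4, 7.09, 6.41 and 8.06 CPM. It had the smallest p of the 10. All MDA-MB-231 EV libraries were above all MCF-10A EV libraries, as for 2.22% of all genes (5.87% on unscaled library sizes). The log2 fold change was 0.58 ± 0.16 (SE; edgeR adjusted p = 0.260). The class I light chain B2m was at 0.29 ± 0.13 and Tapbp, which loads peptides, at 0.20 ± 0.093 (log2 fold change and SE). Endothelial markers, a cell type that also carries class I molecules, summed to 294 to 373 CPM in MCF-10A EV and 337 to 511 CPM in MDA-MB-231 EV. Of the 8, 7 were above 0 and 1 below, and 4 were higher at an unadjusted p under 0.05, against 5.95% of all genes. Pecam1, with the smallest p of the 8, was at 0.36 ± 0.10 (SE; edgeR adjusted p = 0.260; DESeq2 adjusted p = 0.0243). The part of the endothelial markers in the antigen-processing values was not tested.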

How the data were processed

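Gastrocnemius RNA (Trizol, about 20 mg tissue) was, per the labels' protocols, selected with poly-T beads. Gene counts were deposited by the authors as whole numbers on mm10. The FPKM values deposited by the authors equal count over length and library total within 0.1% for 100.0% of 161066 values, so they carry no scaling between libraries. The submitters' processing notes list, without roles, edgeR, DESeq2, HTSeq 0.6.1, STAR 2.5 and TopHat. Strand use and annotation release are not given in the sources used here.

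All 9 libraries entered 1 fit of the counts with edgeR 4.0.16 (R 4.3.3; quasi-likelihood F-test, robust, two-sided, TMM factors, group only, filterByExpr with minimum count 10 and total 15, Benjamini-Hochberg over all genes). The SE is the absolute log2 fold change over the root of F. CPM uses TMM-scaled library sizes. The biological coefficient of variation was 20.2%. The labels do not say that replicates are separate mice, so p-values measure the spread between libraries. No pair of libraries agreed within sampling noise. Members, subgroups and lists were chosen with earlier results of these data known. Per-library values are given for the catalytic subunits, the smallest p of each subgroup and the ends of the level order, with further members chosen after their values were seen. Exon overlaps are from GENCODE on the same build. Alternatives were RLE factors, unscaled libraries, other filters, DESeq2 1.42.0, limma 3.58.1 (voom, log2 FPKM), leaving out the 20 most abundant genes, a replicate block and left-out libraries. A gene of the substrate delivery list is not reported here.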

Additional observations from a re-analysis of the deposited data

Results flagged for a closer look

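Of 102 groups of values examined for a library standing apart, 1 was flagged, where chance flags about 1 in 20, or 5.10. Psme3, the nuclear activator, was at 82.2 CPM in MCF-10A EV replicate 2 and at 65.3 to 68.1 CPM in the other libraries of that group.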

How the results depend on the processing

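Fold changes here are log2 and, for subgroups and single members, relative to the median of all genes. Under all 20 alternatives 0 members were called, and relative to the all-gene median 31 of 48 members kept their direction in every one. Such relative values hardly differ between scalings and do not test that choice. The fold change itself was below 0 in 35 of the 48 members with TMM scaling and in 20 on unscaled library sizes. Members lower at an unadjusted p under 0.05 numbered 0 without both MCF-10A EV replicates 1 and 2, on log2(FPKM + 0.1), on log2(FPKM + 1) and with unscaled library sizes. They numbered 2 to 14 when 1 library was left out, and members higher numbered 0 to 1. On both FPKM scales and with unscaled library sizes, 2 members were higher.

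The member median itself was -0.048 without both replicates, 0.015 on log2(FPKM + 0.1), 0.014 on log2(FPKM + 1) and 0.014 unscaled, beside all-gene medians of 0.16 on log2(FPKM + 0.1) and 0.15 unscaled. Without MCF-10A EV replicates 1 and 2 the medians were -0.022 for the alpha ring, -0.10 for the standard catalytic subunits, 0.37 for the immunoproteasome, -0.071 for the ATPases, -0.012 for the other base subunits, -0.049 for the lid, -0.062 for the base chaperones, -0.053 for the regulatory particle, -0.058 for all standard subunits and -0.055 for all members. Members that are not standard subunits had a median of 0.052 on log2(FPKM + 1). With 1 library left out, the base chaperones ranged from -0.030 to 0.13 and the members that are not standard subunits from -0.040 to 0.10. DESeq2 called 1 gene of the shuttle list.

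Relative to the all-gene median, single members changed sign as follows, and the cause was not tested. Without both replicates, Psmb4 was -0.020, Psmd2 0.014, Psma6 0.0038, Psmc1 0.012, Psmd9 -0.062, Psmb10 -0.15, Psmd7 0.039, Psme4 0.006 and Psme2 0.14. In DESeq2, Psmd11 was -0.0025 and Psma5 -0.012, and with no count filter -0.0018 and -0.011. Psme1 was 0.0056 with the CPM filter, 0.0014 unscaled, 0.0013 on log2(FPKM + 0.1) and 0.052 on log2(FPKM + 1). Psmg2 was 0.00071 and 0.050 on those FPKM scales. On log2(FPKM + 1), Psmc3ip was 0.0088, Psmc4 0.036 and Psmb3 0.0063. With 1 library left out, the ranges that crossed 0 were -0.039 to 0.12 for Psmb4, -0.040 to 0.056 for Psmd11, -0.078 to 0.027 for Psmc3ip, -0.092 to 0.10 for Psme1, -0.10 to 0.10 for Psmg2, -0.030 to 0.19 for Psmd9, -0.22 to 0.00049 for Psmd8, -0.094 to 0.034 for Psmc4, -0.081 to 0.16 for Psmb10, -0.046 to 0.092 for Psma5, -0.10 to 0.010 for Psmb3 and -0.18 to 0.030 for Psme2.

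Deviations of same-numbered libraries of the groups correlated at -0.299, -0.178, 0.0377 and 0.0798, and those of differently numbered ones at -0.216 to 0.269. With 1 pair per number, this cannot settle whether the numbers pair libraries. With the replicate block, 2 members were lower at an unadjusted p under 0.05, Psmc3ip was 0.0069 and Psma5 -0.0016. Depth limits the inducible subunits Psmb8 and Psmb9, Psmg3 and Psme2b, which had at most 88 reads in a library.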
